A study of Mus musculus with 8 samples.

Results

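Genes of mitosis and the spindle were examined in astrocyte cultures, taking every row of the authors' deposited table whose gene name matched a fixed pattern of mitotic names. The pattern covers cyclins, cyclin-dependent kinases and their partners, mitotic kinases, centromere and kinetochore proteins, kinesins, condensins, spindle proteins and cytokinesis proteins. It found 76 of the 3624 genes in the table. The pattern goes by name, so it also takes kinesins and kinases that act outside division, and these were kept as 2 groups of their own beside 9 groups that act in the cell cycle. The cultures came from retinas and optic nerves of mice at postnatal days 1 to 3, grown in DMEM/F12 with 10% fetal bovine serum. The knockout group was 4 samples of genotype Spp1-/- on the strain B6.129S6(Cg)-Spp1tm1Blh/J, and the comparison group was 4 wild-type samples of strain C57BL/6. Spp1 encodes osteopontin, a secreted matrix phosphoprotein and cytokine, and in the authors' deposited table its implied mean normalized count was 441 in Spp1 KO and 26271 in WT. An implied mean is a group mean worked out from the deposited mean over all samples and the fold change, since no values per sample were used. The deleted segment of Spp1 is left unnamed by the sources used here. Separate cultures, pooled pups or repeat wells are not distinguished in the labels, so the p-values speak of the spread among these libraries alone, and that spread may be technical.

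Mitosis is driven by cyclin B bound to Cdk1, which is switched on by Cdc25 phosphatases and ends when the anaphase-promoting complex, with its activator Cdc20 and the ubiquitin-conjugating enzyme Ube2c, marks cyclin B and securin for destruction. Kinetochores built on the centromere histone Cenpa hold spindle microtubules, the chromosomal passenger complex corrects their attachments, and a checkpoint of Bub, Mad and Ttk proteins delays anaphase until all are attached. Kinesins and the midzone protein Prc1 then separate the poles and direct cytokinesis. Most of these genes are transcribed mainly from late S phase to mitosis, through CHR and CCAAT elements in their promoters that are bound by the DREAM and MuvB complexes and by NF-Y. Newborn astrocytes divide, and serum keeps them dividing in culture.

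Nearly all listed genes of the cell-cycle groups were lower in Spp1 KO than in WT. In the 9 cell-cycle groups 60 of 61 listed genes were lower and 1, Tacc1, was higher. In the other 2 groups 7 of 15 were lower and 8 higher. Genes were put in these groups by role, with earlier results of these data known. Together 67 of the 76 members, 88.2%, had a negative log2 fold change of Spp1 KO over WT, where 45.1% of all listed genes did, and 9 members, 11.8%, had a positive one, where 54.9% of all listed genes did. Only genes past both an adjusted p of 0.05 and a change of 0.58 on the log2 scale, up or down, are in the table. A gene that is absent may have failed one limit or both, or gone untested, and is called not listed below. The counts therefore describe listed genes. Of 186 annotated protein-coding genes whose names match the pattern, 76 (40.9%) were listed, and of all 21992 annotated protein-coding genes 16.0% were listed. That 16.0% also counts annotated genes that went untested. About 16600 genes were tested, an estimate, and 3624 were listed, so the listed share of tested genes is larger than 16.0%. The same limit holds wherever 16.0% is given below. Within the pattern, 61 of 114 annotated genes of the cell-cycle groups were listed and 15 of 67 of the other 2 groups. The remaining annotated names (Ccnb1ip1, Cks1brt, Ect2l, Kif1bp and Kif28) were put in no group and were not listed.

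The listed falls were of moderate size, in a range that the limits of the table cut short. The median log2 fold change of the 60 lower cell-cycle members was -0.88, a 1.83-fold lower level, with quartiles of -1.08 and -0.78. Their standard deviation was 0.25 on the log2 scale, against a median deposited standard error of 0.17 for a single gene. Smaller falls are not in the table and Tacc1 is left out, so the narrow spread partly reflects this choice. With Tacc1 the standard deviation was 0.37. None of the 67 lower members reached a log2 fold change of -2, whereas 301 of the 1633 lower genes of the whole table did. The strongest falls were those of Ccna1 at -1.69 and Cenpm at -1.68 in the authors' deposited table, both with wide intervals. The weakest listed were Cenpe at -0.59 and Cenpl at -0.60 in the authors' deposited table, next to the fold-change limit. In all 10 lower cell-cycle members lay within 0.7 of zero. In bulk RNA, fewer dividing cells and less of these transcripts per dividing cell cannot be told apart.

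**Figure D1:**
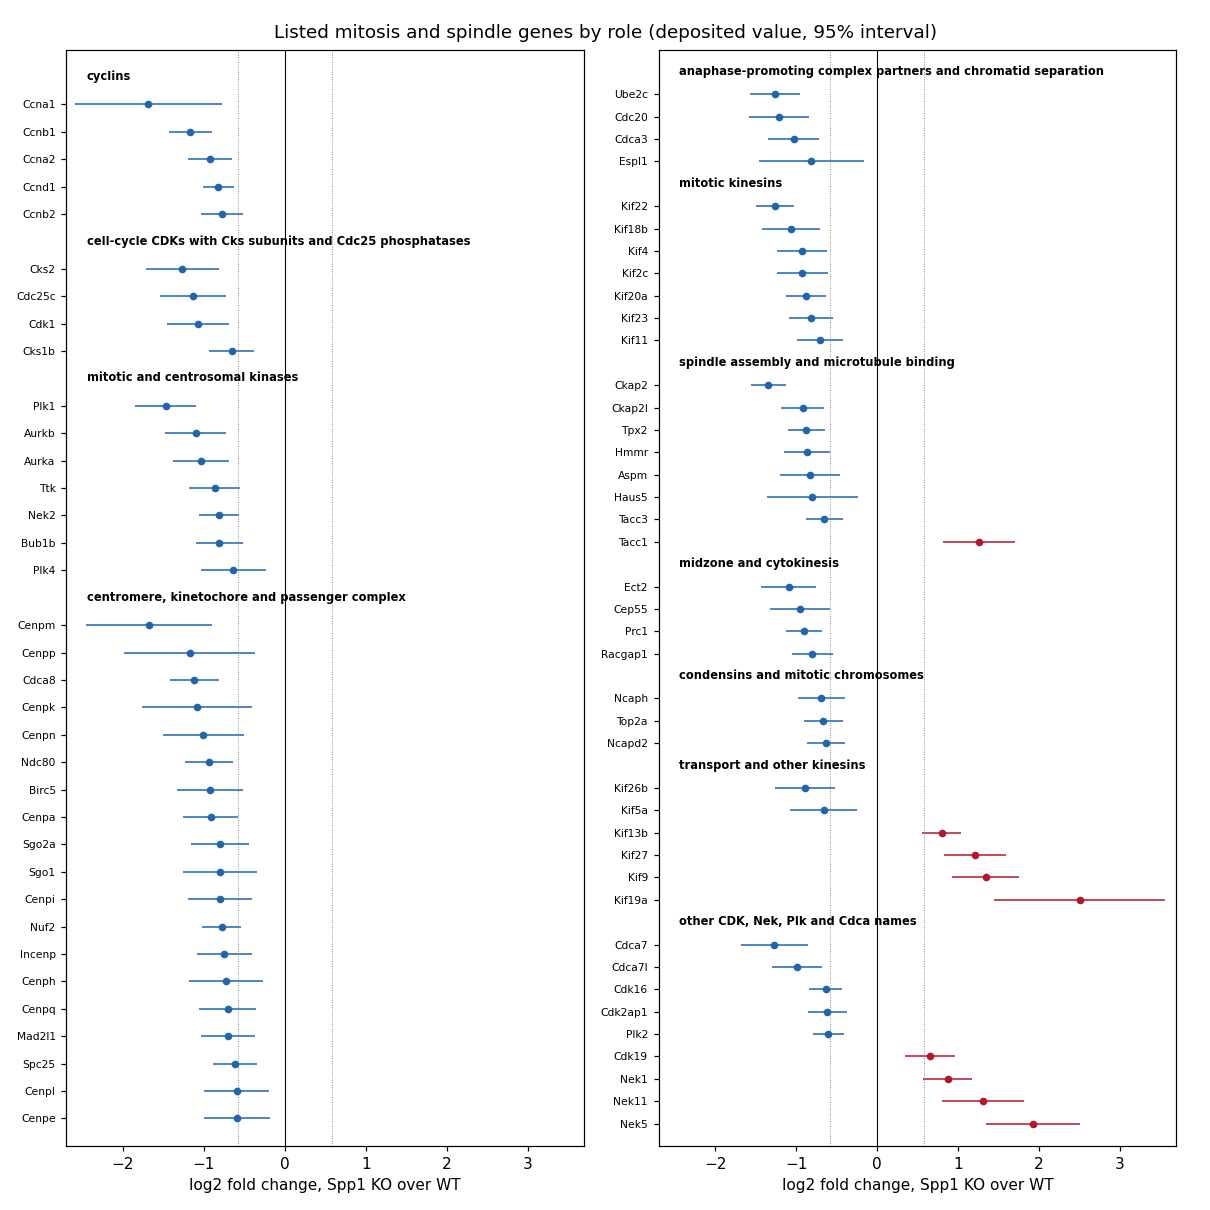
Log2 fold change of Spp1 KO over WT for each of the 76 listed members, by role, as points with 95% intervals from the deposited standard errors. Blue points are lower and red points higher in Spp1 KO, and dotted lines mark the limit of 0.58. Blue points fill every cell-cycle group, and the red points are Tacc1 and 8 kinesin, Nek and Cdk genes of the last 2 groups.

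Promoter sequence was set beside these values because the members moved together. The windows run from 250 bases before to 50 bases after a gene start given by RefSeq on build GRCm38.p6. For each gene only the first listed window was used, and for some genes it lies away from the start of the annotated gene. The windows are shown for the first member by adjusted p in each of the 9 cell-cycle groups. Capitals mark the CHR letters TTTGAA on either strand (the reverse reads TTCAAA) and the variant TTCGAA, and the letters CCAAT on either strand (the reverse reads ATTGG).
Ccnb1, chr13:100786437-100786736, minus strand: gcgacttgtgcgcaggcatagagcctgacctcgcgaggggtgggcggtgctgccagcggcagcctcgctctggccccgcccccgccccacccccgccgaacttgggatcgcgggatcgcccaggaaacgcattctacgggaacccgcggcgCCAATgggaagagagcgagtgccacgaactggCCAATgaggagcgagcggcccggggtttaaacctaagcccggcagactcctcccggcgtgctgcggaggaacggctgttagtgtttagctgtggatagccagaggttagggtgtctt
Cdk1, chr10:69352863-69353162, minus strand: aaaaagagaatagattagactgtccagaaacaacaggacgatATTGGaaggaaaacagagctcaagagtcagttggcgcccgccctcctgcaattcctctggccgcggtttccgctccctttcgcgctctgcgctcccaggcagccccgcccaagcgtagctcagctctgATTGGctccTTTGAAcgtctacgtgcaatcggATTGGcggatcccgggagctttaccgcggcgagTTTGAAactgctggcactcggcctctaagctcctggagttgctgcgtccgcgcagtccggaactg
Plk1, chr7:122159185-122159484, plus strand: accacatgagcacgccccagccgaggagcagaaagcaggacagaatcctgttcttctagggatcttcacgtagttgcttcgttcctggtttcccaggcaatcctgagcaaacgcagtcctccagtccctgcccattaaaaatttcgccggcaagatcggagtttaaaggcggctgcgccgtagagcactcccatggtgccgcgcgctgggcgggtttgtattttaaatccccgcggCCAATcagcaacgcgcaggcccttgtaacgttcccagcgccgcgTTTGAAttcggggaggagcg
Cdca8, chr4:124936868-124937167, minus strand: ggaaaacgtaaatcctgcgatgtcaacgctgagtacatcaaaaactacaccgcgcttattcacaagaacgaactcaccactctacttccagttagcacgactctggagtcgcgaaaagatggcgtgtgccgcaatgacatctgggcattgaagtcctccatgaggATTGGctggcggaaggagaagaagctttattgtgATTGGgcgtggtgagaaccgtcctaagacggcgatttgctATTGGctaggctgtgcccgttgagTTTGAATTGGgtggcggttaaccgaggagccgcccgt
Kif22, chr7:127042371-127042670, minus strand: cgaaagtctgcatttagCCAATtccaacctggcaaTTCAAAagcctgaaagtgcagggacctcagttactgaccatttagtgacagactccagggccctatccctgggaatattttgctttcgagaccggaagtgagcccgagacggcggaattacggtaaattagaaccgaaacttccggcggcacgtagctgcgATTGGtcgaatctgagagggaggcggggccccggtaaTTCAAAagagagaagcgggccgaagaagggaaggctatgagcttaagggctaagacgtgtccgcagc
Ube2c, chr2:164769679-164769978, plus strand: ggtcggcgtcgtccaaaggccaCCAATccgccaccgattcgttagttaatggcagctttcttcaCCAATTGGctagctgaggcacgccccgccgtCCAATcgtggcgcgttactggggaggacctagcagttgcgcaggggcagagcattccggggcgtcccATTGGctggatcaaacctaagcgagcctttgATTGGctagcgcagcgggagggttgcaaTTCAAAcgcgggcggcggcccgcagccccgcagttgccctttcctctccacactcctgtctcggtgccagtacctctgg
Ckap2, chr8:22185770-22186069, minus strand: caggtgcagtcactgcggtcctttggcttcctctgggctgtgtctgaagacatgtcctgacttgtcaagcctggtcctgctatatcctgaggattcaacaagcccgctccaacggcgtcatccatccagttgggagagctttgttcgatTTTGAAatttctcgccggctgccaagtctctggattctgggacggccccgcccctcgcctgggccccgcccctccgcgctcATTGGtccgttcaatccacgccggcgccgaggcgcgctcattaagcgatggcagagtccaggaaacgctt
Prc1, chr7:80294201-80294500, plus strand: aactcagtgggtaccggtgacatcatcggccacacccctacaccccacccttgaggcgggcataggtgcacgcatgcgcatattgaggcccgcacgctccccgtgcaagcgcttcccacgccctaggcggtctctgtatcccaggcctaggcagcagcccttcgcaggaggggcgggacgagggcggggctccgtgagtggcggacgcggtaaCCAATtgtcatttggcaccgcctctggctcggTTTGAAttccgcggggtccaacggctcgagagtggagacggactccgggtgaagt
Top2a, chr11:99024140-99024439, minus strand: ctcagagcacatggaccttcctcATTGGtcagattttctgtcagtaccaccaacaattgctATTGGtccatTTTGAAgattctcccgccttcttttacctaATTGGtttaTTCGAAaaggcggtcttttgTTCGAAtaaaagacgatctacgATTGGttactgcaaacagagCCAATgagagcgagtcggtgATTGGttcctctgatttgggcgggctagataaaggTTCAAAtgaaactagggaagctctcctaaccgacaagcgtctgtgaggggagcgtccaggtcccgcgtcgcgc

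Of these 9 windows, all but that of Ccnb1 hold both kinds of letters, and Ccnb1 holds a pair of CCAAT matches without an exact CHR match. In Cdca8 a CHR match and a CCAAT match share letters. Across the lower cell-cycle members, 53 of 60 genes had a window, and 35 of these (66.0%) held CHR letters, against 5254 of 27025 promoters of all genes (19.4%). CCAAT letters stood in 42 of the 53 windows (79.2%), against 37.9% of all promoters, and both kinds in 32 (60.4%), against 7.70%. Genes of the same 9 groups that the table does not list held CHR letters in 18 of 46 windows (39.1%) and both kinds in 11 (23.9%). Among all listed genes that were lower, 15.7% of windows held CHR letters, and among all that were higher, 14.8% did. E2F-type letters (TTTGGCG or the variant TTTCGCG or the variant TTCCCGC, either strand) were in 12 of the 53 windows (22.6%), in 11 of the 46 unlisted genes' windows (23.9%) and in 6.80% of all promoters. The background of all promoters includes genes that are not protein-coding. Of 16522 windows of protein-coding genes, 17.3% held CHR letters, 38.7% CCAAT letters, 7.18% both kinds and 8.84% E2F-type letters. In the lower cell-cycle members, 31 of 45 CHR matches began between 60 bases before and 50 bases after the start. The median position of CHR matches was -15, and that of CCAAT matches -58. Positions were not worked out for all promoters or the unlisted genes, so these positions have no background beside them. A match is a run of letters, not a shown binding site.

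**Figure D2:**
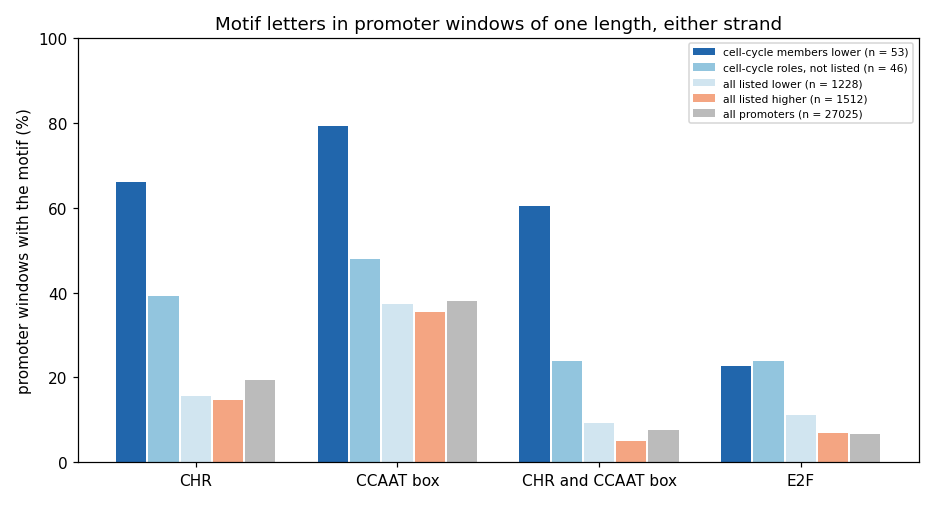
Share of promoter windows (%) that hold CHR, CCAAT, both, or E2F letters on either strand, for lower cell-cycle members, unlisted genes of the same groups, all listed lower genes, all listed higher genes and all promoters, with the number of windows in the key. The lower cell-cycle members stand highest for CHR (66.0%), CCAAT (79.2%) and both (60.4%), and beside the unlisted genes for E2F letters.

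Of 10 cyclin genes 5 were listed and lower, namely Ccna1, Ccna2, Ccnb1, Ccnb2 and Ccnd1. Ccnb1, the mitotic cyclin that partners Cdk1, had an implied mean normalized count of 618 in Spp1 KO and 1391 in WT from the authors' deposited table, a log2 fold change of -1.17 (95% interval -1.43 to -0.90, adjusted p = 1.7e-16). Ccnb2, another B cyclin, stood at -0.77 (deposited standard error 0.13, as in all brackets that hold a lone value) and Ccna2, the cyclin of S phase and G2, at -0.93 (0.14) in the authors' deposited table. Ccnd1, the cyclin that couples growth factor signals to Cdk4 and Cdk6, stood at 30565 in Spp1 KO and 53997 in WT, a log2 fold change of -0.82 (0.10) in the authors' deposited table. Per kilobase of its longest transcript Ccnd1 was the most abundant listed cyclin, at 8173 in Spp1 KO and 14438 in WT, where Ccna2 was at 308 in Spp1 KO and 585 in WT. Ccna1, known chiefly from male germ cells and singled out for the size of its fall, had implied means of 17.9 in Spp1 KO and 57.7 in WT and fell by 1.69 with an interval of -2.60 to -0.78 in the authors' deposited table. Ccnd2, Ccnd3, Ccne1, Ccne2 and Ccnb3 were not listed.

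The mitotic kinase Cdk1 and its direct partners fell together, and Cdk2, Cdk4 and Cdk6 of interphase were not listed. Cdk1 had implied means of 541 in Spp1 KO and 1142 in WT, which gives -1.08 on the log2 scale (interval -1.46 to -0.70, adjusted p = 4e-07), in the authors' deposited table. Cdc25c, the phosphatase that activates cyclin B and Cdk1, stood at 83.9 in Spp1 KO and 185 in WT, 2.2-fold lower, in the authors' deposited table. The small Cdk-binding subunits Cks2 and Cks1b stood at -1.27 (0.23) and -0.66 (0.14) in the authors' deposited table. A retrogene copy named Cks1brt is annotated, and the sources used here name no counting step, so reads of Cks1b could be shared with it. The phosphatase genes Cdc25a and Cdc25b were not listed.

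All 7 listed mitotic and centrosomal kinases were lower. Plk1, the polo kinase of mitotic entry and spindle assembly, had the strongest fall of this group, with implied means of 480 in Spp1 KO and 1335 in WT, a 2.78-fold lower level (log2 fold change -1.47, interval -1.85 to -1.10, adjusted p = 1.9e-13) in the authors' deposited table. The Aurora kinases of the spindle poles, Aurka, and of the centromere, Aurkb, stood at -1.04 (0.18) and -1.10 (0.19) in the authors' deposited table. Nek2, which splits centrosomes, stood at -0.82 (0.13) in the authors' deposited table. The checkpoint kinase genes Bub1b and Ttk stood at -0.81 (0.15) and -0.87 (0.16) in the authors' deposited table. Plk4, the kinase of centriole duplication, had the smallest fall of the group, at -0.64 (0.20) in the authors' deposited table. The interval of Plk1 lies below that of Nek2 (-1.07 to -0.57), although a difference between genes could not be tested without values per sample. Bub1 and Aurkc were not listed.

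Kinetochore and centromere genes formed the largest group, with 19 listed of 34, all 19 lower, and a median of -0.80 on the log2 scale. The chromosomal passenger complex was listed whole, with 4 of 4 subunits. Cdca8 (borealin) stood at 332 in Spp1 KO and 722 in WT (log2 fold change -1.12, interval -1.42 to -0.82, adjusted p = 9.9e-12), and its partners Birc5 (survivin) and Incenp stood at -0.93 (0.21) and -0.75 (0.17) in the authors' deposited table. The remaining subunit is Aurkb, given among the kinases.

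Of the Ndc80 complex, which grips microtubule ends, 3 of 4 subunits were listed. Ndc80 had implied means of 242 in Spp1 KO and 463 in WT, a log2 fold change of -0.94 (0.15), in the authors' deposited table. Nuf2 stood at -0.78 (0.12) and Spc25 at -0.61 (0.14) in the authors' deposited table, and Spc24 was not listed. These genes differ in transcript length, so levels were compared per kilobase, where Ndc80 at 110 in Spp1 KO and 210 in WT was the least abundant of the 3 and Spc25, at 306 in Spp1 KO and 469 in WT, the most abundant.

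The inner kinetochore, which links the Cenpa nucleosome to these microtubule grips, had 8 listed genes of 15, with log2 fold changes from -1.68 (Cenpm) to -0.60 (Cenpl) in the authors' deposited table. Cenpa itself stood at 376 in Spp1 KO and 709 in WT, a log2 fold change of -0.92 (0.17, adjusted p = 1.1e-06), in the authors' deposited table. Cenpm, singled out after its value was seen, had implied means of 93.8 in Spp1 KO and 300 in WT, 3.2-fold lower with an interval of -2.46 to -0.90 on the log2 scale, in the authors' deposited table. Cenpn (-1.01), Cenpk (-1.09), Cenpp (-1.18), Cenpi (-0.80), Cenph (-0.73) and Cenpq (-0.71) completed the set in the authors' deposited table. The checkpoint protein gene Mad2l1 and the kinesin gene Cenpe stood at -0.70 (0.17) and -0.59 (0.21) in the authors' deposited table. The shugoshin genes Sgo1 and Sgo2a, which guard centromeric cohesion, both stood at -0.80 in the authors' deposited table, and reads of Sgo2a could be shared with its annotated copy Sgo2b. Cenpf, Knl1, Kntc1 and Bub3 were not listed.

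Of 6 partners of the anaphase-promoting complex and genes of chromatid separation 4 were listed, all 4 lower. Ube2c, the conjugating enzyme of the anaphase-promoting complex, had implied means of 432 in Spp1 KO and 1037 in WT, 2.4-fold lower (log2 fold change -1.26, interval -1.57 to -0.96, adjusted p = 2.1e-14) in the authors' deposited table. Cdc20, the activator of the same complex, stood at 619 in Spp1 KO and 1429 in WT, 2.31-fold lower, in the authors' deposited table. Cdca3, a trigger of mitotic entry that this complex marks for destruction, fell by 1.03 (0.16) in the authors' deposited table. Espl1, the separase that cuts cohesin, stood at -0.81 with the largest standard error of this group (0.33, adjusted p = 0.046) in the authors' deposited table. Securin, encoded by Pttg1, and the cohesin protector gene Cdca5 were not listed.

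**Figure D3:**
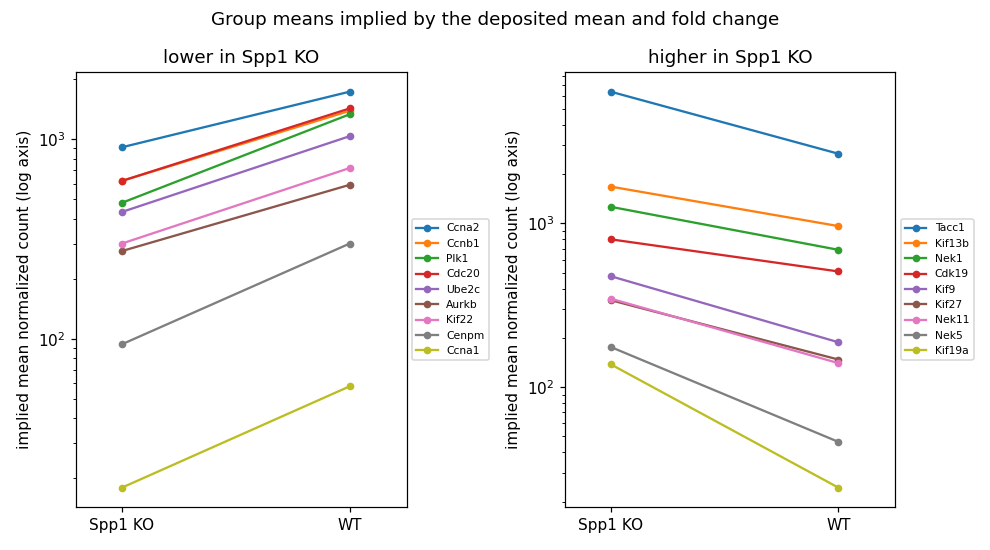
Implied mean normalized count (log axis) in Spp1 KO and in WT for 9 lower members (left) and the 9 higher members (right), with a line per gene joining its group means. Plk1 stood at 480 in Spp1 KO and 1335 in WT, and Kif19a at 138 in Spp1 KO and 24.3 in WT.

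All 7 listed mitotic kinesins were lower. Kif22, a chromokinesin that pushes chromosome arms toward the spindle equator, had implied means of 300 in Spp1 KO and 718 in WT, a log2 fold change of -1.26 (interval -1.49 to -1.02, adjusted p = 1e-23), in the authors' deposited table. Kif18b and Kif2c, which shorten microtubules, stood at -1.06 (0.18) and -0.92 (0.16) in the authors' deposited table. Kif4 and Kif20a, motors of the midzone and cytokinesis, stood at -0.93 (0.16) and -0.88 (0.12) in the authors' deposited table. Kif11, the plus-end motor that holds spindle poles apart, had the smallest fall of the group, at -0.70 (0.15), in the authors' deposited table. Kif14, Kif15, Kif18a and Kif20b were not listed.

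Among spindle assembly genes 7 of 8 listed were lower and 1 was higher. Ckap2, a microtubule nucleation factor, had the smallest adjusted p of all members (1.8e-31), with implied means of 909 in Spp1 KO and 2309 in WT, 2.54-fold lower, in the authors' deposited table. Its paralog Ckap2l stood at -0.92 (0.13), and Tpx2, the activator of Aurka, at -0.87 (0.12) in the authors' deposited table. Hmmr and Aspm, which act at spindle poles, stood at -0.86 (0.14) and -0.83 (0.19) in the authors' deposited table. Tacc3, which works with Aurka on kinetochore fibres, fell by 0.65 (0.12) in the authors' deposited table. Tacc1, a relative of Tacc3, went the other way, with implied means of 6381 in Spp1 KO and 2665 in WT, 2.39-fold higher (log2 fold change 1.26, interval 0.81 to 1.71, adjusted p = 4.2e-07) in the authors' deposited table. The augmin complex had 1 of 8 subunits listed, Haus5 at -0.80 (0.29) in the authors' deposited table.

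Of 5 midzone and cytokinesis genes 4 were listed and lower, and Anln was not listed. Prc1, which bundles midzone microtubules, stood at 1245 in Spp1 KO and 2325 in WT, a log2 fold change of -0.90 (interval -1.13 to -0.67, adjusted p = 1.5e-13), in the authors' deposited table. Centralspindlin, made of the kinesin Kif23 and of Racgap1, stood at -0.82 (0.14) and -0.80 (0.13), and the RhoA activator Ect2 that it recruits at -1.09 (0.17) in the authors' deposited table. Cep55, which directs abscission, stood at -0.95 (0.19) in the authors' deposited table. The intervals of these 4 genes and Kif23 overlap.

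Among the 9 cell-cycle groups, chromosome condensation genes were listed least often, with 3 of 11. Top2a, the topoisomerase that untangles sister chromatids, had implied means of 2926 in Spp1 KO and 4645 in WT, a log2 fold change of -0.67 (0.12), in the authors' deposited table. The condensin I subunits Ncapd2 and Ncaph stood at -0.63 (0.12) and -0.69 (0.15) in the authors' deposited table. Smc2, Smc4, Ncapg and the condensin II subunits were not listed, nor was the proliferation marker Mki67.

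**Figure D4:**
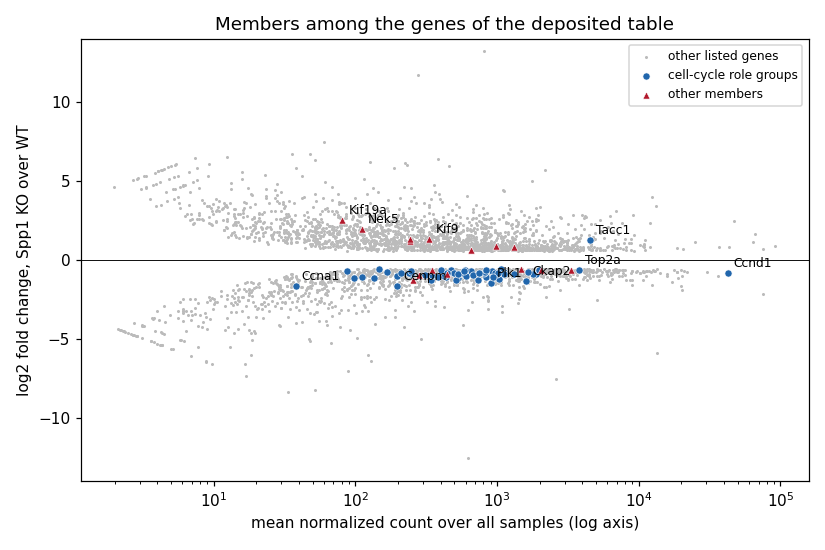
Log2 fold change of Spp1 KO over WT against mean normalized count over all samples (log axis) for other listed genes (grey), cell-cycle members (blue circles) and other members (red triangles). The blue circles form a band just below the gap at the fold-change limit, with Ccnd1 far to the right and Tacc1 above zero, and Kif19a, Nek5 and Kif9 lie among the higher genes.

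Apart from Tacc1, the higher members came from the 2 groups outside the mitotic machinery, and several are known from cilia. Of these 2 groups 15 of 67 annotated genes (22.4%) were listed, where 16.0% of all annotated protein-coding genes were. The 16.0% includes untested genes, so the share of these 2 groups is not shown to exceed that of tested genes. Kif3a, Kif3b, Kif6, Kif7, Kif17, Nek8 and Nek10 were among the names not listed, so the link to cilia rests on a few members. Kif19a, a kinesin that in mouse limits the length of motile cilia, had implied means of 138 in Spp1 KO and 24.3 in WT, 5.67-fold higher (log2 fold change 2.50, interval 1.45 to 3.56, adjusted p = 3e-05), in the authors' deposited table. Kif9, a kinesin of the central pair of motile axonemes, stood at 476 in Spp1 KO and 188 in WT, a log2 fold change of 1.34 (0.21), in the authors' deposited table. Kif27, a relative of the Hedgehog kinesin Kif7 linked to motile cilia in mouse, stood at 340 in Spp1 KO and 147 in WT, a log2 fold change of 1.21 (0.20), in the authors' deposited table.

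The Nek kinases among the higher members were Nek5, Nek11 and Nek1. Nek5 stood at 176 in Spp1 KO and 46.3 in WT (log2 fold change 1.93, interval 1.34 to 2.51, adjusted p = 1.6e-09) in the authors' deposited table. Nek11, a kinase of the DNA damage checkpoint, stood at 1.31 (0.26) and Nek1, a kinase of the primary cilium and of DNA repair, at 0.87 (0.16) in the authors' deposited table. Kif13b, a transport kinesin, stood at 0.80 (0.12) and Cdk19, a Mediator kinase, at 0.65 (0.16) in the authors' deposited table.

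Of the 9 higher members 4 had a window, and 3 of the 4 held CCAAT letters (Kif27, Nek5 and Nek11) and 1, Kif27, held CHR letters. The Kif27 window (chr13:58354898-58355197, minus strand) lies inside the annotated gene, which begins at 58359122 on that strand. The window of Kif9, the remaining one, holds neither. It is shown for another run of letters, and its capitals mark GTTGCC, an arm of the X-box that RFX factors of ciliary genes bind, a motif picked after the values were seen.
Kif9, chr9:110476708-110477007, plus strand: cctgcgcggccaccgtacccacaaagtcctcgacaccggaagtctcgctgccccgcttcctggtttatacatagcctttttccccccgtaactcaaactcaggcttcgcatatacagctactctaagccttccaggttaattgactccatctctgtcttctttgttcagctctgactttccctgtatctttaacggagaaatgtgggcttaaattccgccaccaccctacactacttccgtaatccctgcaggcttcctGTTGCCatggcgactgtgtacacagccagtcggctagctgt
GTTGCC stood on either strand in 2 of the 4 higher members with a window, Kif9 and Nek5, in 8 of the 53 lower cell-cycle windows (15.1%) and in 12.7% of all promoters.

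A list of 81 motile cilium gene names, 78 of them annotated, was set beside these members. It was drawn up and trimmed after the values were seen and so not tested. It had 51 listed genes (63.0% of the names, where 16.0% of all annotated protein-coding genes were listed), 51 of them higher and 0 lower. Of all listed genes 54.9% were higher. The list was shaped with the values known, so its counts and median partly reflect how it was made. The median of these 51 was 1.63 on the log2 scale, where that of all listed higher genes was 1.31. Dnah6, an axonemal dynein heavy chain, stood at 305 in Spp1 KO and 30.6 in WT, and Spag6l, a central pair protein, at 361 in Spp1 KO and 69 in WT, from the authors' deposited table. Rfx3, a factor of ciliary promoters, rose by 0.95 (0.18) in the authors' deposited table, and Foxj1 was not listed. In 42 listed cilium genes with a window, 18 (42.9%) held GTTGCC.

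The lower members of the last 2 groups were a mixed set. Cdca7, a partner of the chromatin remodeller Hells, stood at -1.27 (0.21) and its relative Cdca7l at -0.99 (0.16) in the authors' deposited table. Cdk16, Cdk2ap1 and Plk2 stood at -0.64 (0.11), -0.61 (0.12) and -0.60 (0.10) in the authors' deposited table. Kif26b stood at -0.89 (0.19) and Kif5a, a neuronal transport kinesin, at -0.66 (0.21) in the authors' deposited table. Beside Kif5a, 9 of 13 neuron markers were listed, all 9 lower, with summed implied means of 8537 in Spp1 KO and 18903 in WT, and their part in its value was not tested.

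Listed mitosis genes that the name pattern misses were lower as well. Of 63 such names, 61 of them annotated, 21 were listed, 21 of them lower, and their median was -0.89 on the log2 scale. Lmnb1, a nuclear lamin, stood at -1.20 (0.11), Fam83d, a spindle protein, at -1.57 (0.16) and Gtse1, a microtubule protein of G2, at -1.19 (0.13) in the authors' deposited table. Of 54 G2/M genes in common use for scoring single cells 33 (61.1%) were listed, 29 of them members, and all 33 were lower. Of 43 S phase genes 9 (20.9%) were listed, a share near the 16.0% of all annotated protein-coding genes. These 9 were lower, with a median of -0.94, among them Rrm2 at -1.39 (0.20) and Uhrf1 at -0.85 (0.13) in the authors' deposited table. Pcna, Mcm2, Mcm4, Mcm5 and Mcm6 were not listed.

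Of 25 Cdk inhibitors and p53 targets 7 (28.0%) were listed, 5 lower and 2 higher, where 16.0% of all annotated protein-coding genes were listed. Cdkn1c, the Cdk inhibitor p57 and an imprinted gene, stood at 282 in Spp1 KO and 52.7 in WT, a log2 fold change of 2.42 (0.47, adjusted p = 2.9e-06), in the authors' deposited table. Cdkn3, a phosphatase that peaks in mitosis, stood at -1.52 (0.31), and the inhibitor gene Cdkn2c at -0.67 (0.11) in the authors' deposited table. Cdkn1a, Cdkn1b, Cdkn2a and Cdkn2b were not listed. Of 23 retinoblastoma, E2F and related factors 3 (13.0%) were listed and lower, Foxm1, Myc and E2f8. Foxm1, a transcription factor of late cell-cycle genes, stood at 786 in Spp1 KO and 1430 in WT, or -0.86 (0.16) on the log2 scale, in the authors' deposited table.

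**Figure D5:**
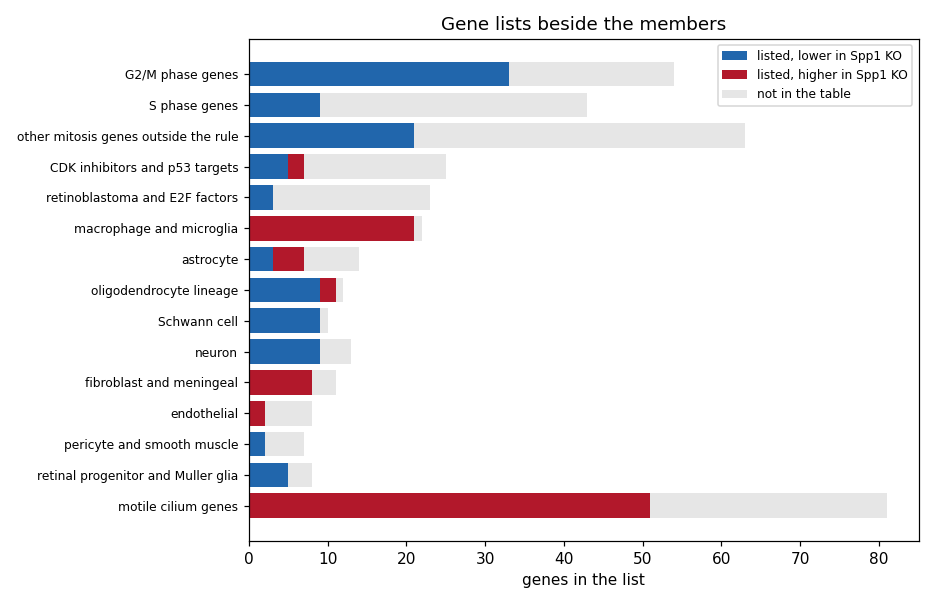
Number of genes in each list that were listed and lower (blue), listed and higher (red) or absent from the table (grey). The G2/M list has 33 lower and 0 higher, and the macrophage and microglia list 0 lower and 21 higher. The motile cilium list, drawn up and trimmed after the values were seen, has 0 lower and 51 higher.

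Markers of other cells are set beside the mitotic genes here, where 16.0% of all annotated protein-coding genes were listed in either direction. Macrophage and microglia markers were higher in 21 of 22, with implied means from the authors' deposited table that summed over the listed markers to 125361 in Spp1 KO and 29152 in WT. Fibroblast and meningeal markers were higher in 8 of 11, with sums of 106408 in Spp1 KO and 38103 in WT. Col1a1, Col1a2 and Pdgfrb were not listed. All sums here leave out unlisted markers, so they do not give the level of a cell type. Oligodendrocyte lineage markers were lower in 9 and higher in 2 of 12, with sums of 10643 in Spp1 KO and 27536 in WT. Schwann cell markers were lower in 9 of 10, with sums of 1179 in Spp1 KO and 5606 in WT, and retinal progenitor and Müller glia markers in 5 of 8, with 4613 in Spp1 KO and 8858 in WT. Endothelial markers were higher in 2 of 8. Of 7 pericyte and smooth muscle markers 2 were lower, Acta2 and Tagln, and Rgs5, Kcnj8, Abcc9, Myh11 and Cnn1 were not listed. Of 14 astrocyte markers 4 were higher (Gjb6, Aqp4, Aldoc and Gfap) and 3 lower (Fabp7, S100b and Pax2), so the list had no common direction. Gfap stood at 91923 in Spp1 KO and 58314 in WT, and Gjb6 at 275 in Spp1 KO and 14.2 in WT. Fabp7 stood at 3836 in Spp1 KO and 9011 in WT, and S100b at 259 in Spp1 KO and 913 in WT, in the authors' deposited table. The Y-linked genes Ddx3y, Eif2s3y, Uty and Kdm5d, picked because they were among the largest rises, summed to 3517 in Spp1 KO and 22.4 in WT, and the labels give no sex. Sex, strain background and genotype cannot be told apart here, and the part of any of these markers in the fall of the mitotic genes was not tested.

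The members lie on 19 chromosomes, and the nearest to Spp1 (chromosome 5, 104435118 to 104441050) is Cdk2ap1, 19.9 Mb away. In the whole table short transcripts were more often lower, 57.1% in the shortest group of 718 genes and 36.7% in the longest of 717. Lower members numbered 14 of 14 in the shortest group and 7 of 11 in the longest. Exons of 13 members overlap another protein-coding gene on the opposite strand, among them Ube2c, Cdc20, Prc1, Ccna2 and Ccnd1, and Cdca7l, which overlaps the higher gene Dnah11. The sources used here do not say whether counting used the strand, so reads of such pairs may be mixed.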

How the data were processed

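RNA of 8 samples, 4 Spp1 KO and 4 WT, was analysed from the authors' deposited table of 1 comparison, which has 0 columns of per-sample values. Per the submitters' processing notes, CASAVA 1.8, STAR 2.7, DESeq2 1.30.1 and build GRCm38 are named, with no roles given. The authors' annotation, counting and filters: not given in the sources used here. Per the file headers, each gene has a mean normalized count over the samples, a signal made by the authors. The authors deposited a log2 ratio and its standard error, and the Wald score of that ratio. The deposited p-value has an adjusted form beside it. About 16600 genes were tested, estimated from adjusted over raw p. The direction was read from Spp1, which is negative, as Spp1 KO over WT. Depth per sample is unknown.

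The test is the deposited Wald test, with the adjusted p-value as deposited. Implied group means were worked out from the mean and the fold change, taking equal groups, and 95% intervals from the standard error. Positions and lengths came from GENCODE M21 (GRCm38), with 3586 of 3624 names found and 1 name listed in 2 rows, and promoters from RefSeq. No test was made on a list. Members and lists were chosen with earlier results of these data known. Group means, intervals and adjusted p were reserved for up to 4 members per role with the smallest adjusted p and for members against their group's direction, with exceptions named in the text. The calculation was tested on simulated data. Python 3.11.15 with pandas 2.3.3 was used.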

Additional observations from a re-analysis of the deposited data

How the results depend on the processing

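The count of 67 lower and 9 higher members, and their median log2 fold change of -0.82, were recomputed under other settings. Where a change of 1 or more on the log2 scale was asked for, 21 members were lower and 6 higher, with a median of -1.10, since fewer genes pass that limit. With the cell-cycle groups alone, 60 were lower and 1 was higher, since the other 2 groups hold the remaining higher genes. Under a mean count of at least 100, an adjusted p of at most 0.01 or 0.001, and a transcript length of at least 2000 bases (chosen after seeing the data), lower members numbered 48 to 64 and higher members 8 or 9. The weighted mean was -0.72. No paired analysis was possible because the table has no values per sample, and for the same reason no sample could be left out and no other normalization run. The depth of single samples is unknown.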
